A study of Homo sapiens with 2 samples.

Results

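The oxysterol-binding protein family was examined in CL1-0 cells, an established human lung adenocarcinoma line, with and without forced expression of FDFT1. The 10 members were OSBP, OSBPL1A, OSBPL2, OSBPL3, OSBPL5, OSBPL6, OSBPL8, OSBPL9, OSBPL10 and OSBPL11. They were taken by gene symbol from the platform annotation, which gave 28 probe sets to them among 41091 that list 1 gene, and 10 genes among 19775. The groups are cells with a control vector and cells with an FDFT1 vector. Both were stable lines kept under puromycin for 2 weeks, and each was measured on 1 Affymetrix array. The promoter of the vectors and whether the cells were a clone or a pool are not stated in the labels. FDFT1 encodes squalene synthase, the first enzyme committed to sterols. The overexpression itself was not analysed here. As there was 1 array per group, no difference has a replicate check or a p-value.

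Oxysterol-binding protein and its relatives (OSBP and the ORPs) carry lipids between membranes that lie close together. A conserved lipid-binding domain holds a sterol or a phosphatidylserine in one direction and phosphatidylinositol 4-phosphate (PI4P) in the other, so that PI4P made at the Golgi or plasma membrane drives the exchange. Many members dock on the endoplasmic reticulum through the VAP proteins, while OSBPL5 and OSBPL8 are anchored there by a membrane segment of their own. The family was named for binding oxysterols, which are oxidised products of cholesterol, and squalene synthase lies upstream of cholesterol.

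The starts of 3 member genes are printed because the arrays compare cells that differ in a sterol enzyme and these genes differ in how their probe sets behaved; they were chosen after their values were seen. The 3 measured probe sets of OSBPL1A had the same sign, OSBPL2 had the largest difference of a member with both signals at the floor, and the bright probe sets of OSBP, the founding member, differed little. Each line is the 250 bases before a RefSeq transcript start on GRCh38.p14, 5′ to 3′ on the gene's strand. Capitals mark matches on either strand to the E-box CACGTG, the CCAAT box CCAAT or the GC box GGGCGG. The windows are chr18:24397825-24398074 (minus strand) for OSBPL1A, chr20:62238271-62238520 (plus strand) for OSBPL2 and chr11:59615775-59616024 (minus strand) for OSBP.
OSBPL1A: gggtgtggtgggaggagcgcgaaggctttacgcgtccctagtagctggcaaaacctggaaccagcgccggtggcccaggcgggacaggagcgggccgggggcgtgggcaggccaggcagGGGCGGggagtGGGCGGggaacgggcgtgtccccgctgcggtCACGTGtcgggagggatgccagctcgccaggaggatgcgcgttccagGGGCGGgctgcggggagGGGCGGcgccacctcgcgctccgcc
OSBPL2: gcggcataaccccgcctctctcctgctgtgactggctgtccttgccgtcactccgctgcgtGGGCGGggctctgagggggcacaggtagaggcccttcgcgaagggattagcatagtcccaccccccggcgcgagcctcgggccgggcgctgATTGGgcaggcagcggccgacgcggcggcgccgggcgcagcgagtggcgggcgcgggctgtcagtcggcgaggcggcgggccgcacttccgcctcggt
OSBP: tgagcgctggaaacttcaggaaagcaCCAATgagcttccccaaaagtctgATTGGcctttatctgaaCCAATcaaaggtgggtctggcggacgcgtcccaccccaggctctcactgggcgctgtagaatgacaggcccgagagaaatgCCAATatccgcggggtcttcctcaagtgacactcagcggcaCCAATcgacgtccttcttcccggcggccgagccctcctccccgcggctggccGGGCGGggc
In these windows OSBPL1A held 1 E-box, whose first base lies 89 bases before the start, and 4 GC boxes. OSBPL2 held 1 CCAAT box and 1 GC box, and OSBP held 5 CCAAT boxes and 1 GC box. No base lay in more than 1 match in the printed windows. All 10 members had at least 1 window in the RefSeq table, 16 in all, and 5 genes had more than 1 start. The OSBPL1A window shown is 1 of 3. The others, chr18:24272233-24272482 and chr18:24311507-24311756, held 0 E-boxes each, and 1 and 0 GC boxes. Which start serves which probe set was not analysed here. The E-box was in 2 of the 16 windows (OSBPL1A and OSBPL8) against 6.34% of 35116 human windows of this length. The CCAAT box was in 6 of 16 against 32.01%, and the GC box in 10 of 16 against 42.6%. These matches describe letters only.

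The values are MAS5 signals in arbitrary units, and their medians were 12.3 for the control sample and 12.1 for the FDFT1 sample. A probe set was counted as measured if a signal, after the arrays were brought to a common centre, reached a floor of 12.2, the median of all signals. The floor is not a detection limit. Differences are FDFT1 minus control on the centred log2 scale, whereas signals are given as deposited. In RNA from whole cultures, fewer cells that express a gene and less RNA per cell cannot be told apart. The centring adds 0.11 to a log2 difference, or 0.053 where 1 signal is set to the floor. Of 11 alveolar type II markers on the array 7 were measured, 3 of them above 0 and 4 below, among them SFTPC at 29.3 and 16.9 and SFTPB at 31.97 and 35.3, while SFTPD, NAPSA, SLC34A2 and PGC were under the floor on both arrays. The signals of the 11 markers, 1 probe set each, summed to 1555 with the control vector and 1282 with FDFT1, mostly from LPCAT1 (934 and 787) and ETV5 (383 and 281). Of 4 epithelial markers CDH1 was under the floor on both arrays and the others lay between 5.63 and 20.1 on their brightest probe set. Blood and immune markers (4 of 6 measured) summed to 93.1 and 100.5, and fibroblast and endothelial markers (3 of 7) to 124 and 138. Of these, PTPRC, LYZ, COL3A1, PDGFRB, VWF and CDH5 were under the floor on both arrays. The part of any of these cell types in the family's values was not tested.

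Every member had at least 1 measured probe set, as had 12968 of all 19775 genes. Of the 10 members 8 had 1 or more above the 75th percentile of all signals on both arrays. The share of all genes at that level was not computed. Gene counts depend on the number of probe sets, which was 28 for the 10 members and 41091 for the 19775 genes. Of the 28 probe sets 23 were measured (82.1%), against 59.9% of all probe sets with 1 listed gene. In 21 of them both signals reached the floor, and in 2, both of OSBPL10, the FDFT1 signal alone did. Of the 28 probe sets 14 (50%) also reached the 75th percentile of all signals, 99.4, on both arrays. That higher level was reached on at least 1 array by 30.6% of all named probe sets, and on both arrays by 11799 of 41091. The 8 members with such a probe set were OSBP, OSBPL1A, OSBPL2, OSBPL3, OSBPL6, OSBPL8, OSBPL9 and OSBPL11. OSBPL5 and OSBPL10 had no probe set at that level. The 5 probe sets under the floor on both arrays were 1 each of OSBPL5, OSBPL8 and OSBPL11 and 2 of OSBPL10.

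**Figure D1:**
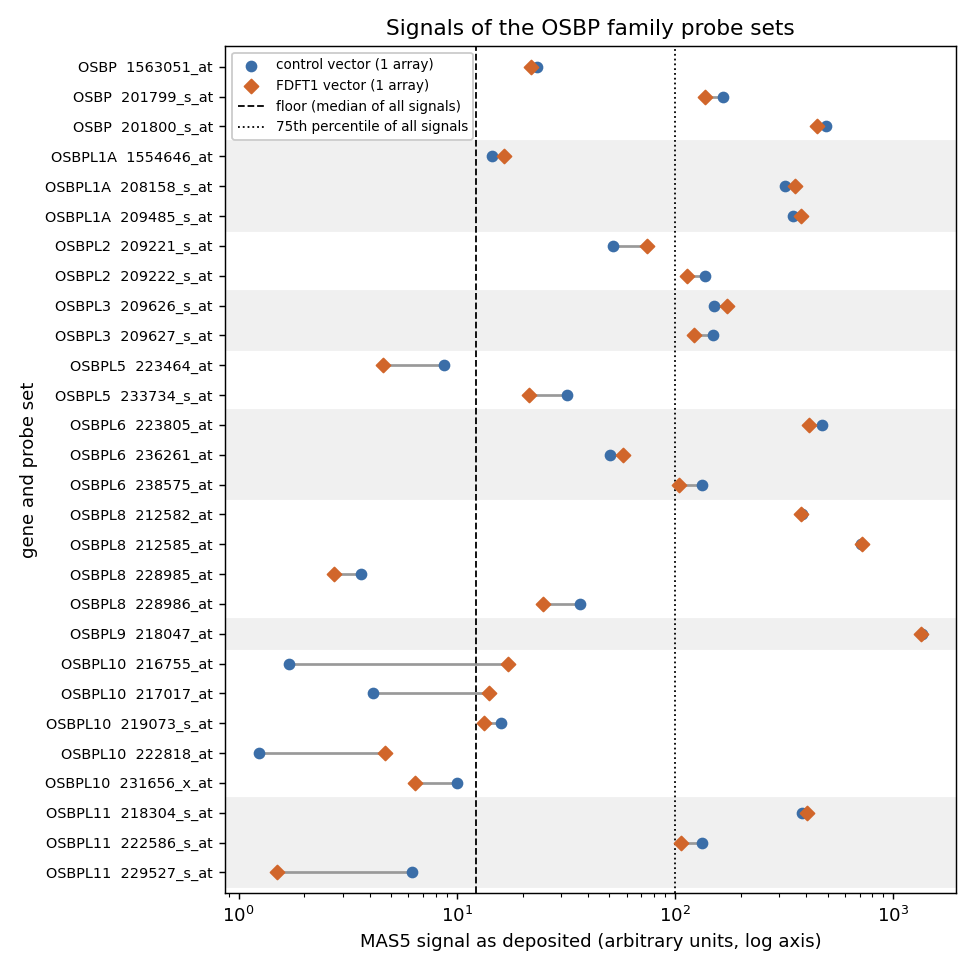
MAS5 signals as deposited on a log axis for the 28 probe sets of the 10 members, with 1 point for the control array (circle), 1 for the FDFT1 array (diamond) and a line joining them. The dashed line is the floor of 12.2 and the dotted line the 75th percentile of 99.4; 14 probe sets lie to the right of the dotted line on both arrays, and all 5 of OSBPL10 lie at or under 17.1.

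Where both signals reached the floor, 2-fold differences were absent in the family and rare over all probe sets. None of the 21 probe sets with both signals at the floor was at least 2-fold different, where 0.973% of all 21589 such probe sets were. A count of 0 among 21 is near that share. The 2 of OSBPL10 with a control signal under the floor have lower bounds under 2-fold, so their size is not settled (1.49% of all 24634 measured probe sets were counted as at least 2-fold, bounds included). At 1.5-fold 1 of the 21 qualified, of OSBPL2 and higher with FDFT1, against 4.92% of all measured probe sets in that direction and 9.24% in either. These shares include probe sets with 1 signal under the floor. The share at 1.5-fold over the 21589 with both signals at the floor was not computed. Among the 21, values above 0 were found for 11 probe sets and values below 0 for 10, and 49.1% of all such probe sets were above 0. Their median was 0.014, against -0.0051 for all. With the bounds of OSBPL10, which count as measured through the FDFT1 signal alone, 13 of 23 were above 0 (49.9% of all measured probe sets were). The median was then 0.084, against -0.00048 for all. As deposited, without centring, the split of the 23 was 10 above and 13 below and the median was -0.022, so the family had no direction that holds under both scalings. By design 13 of the 28 probe sets end in _s_at and 1 in _x_at, types that can match more than 1 transcript or related gene. Leaving these out of the 23 gave 8 above 0 and 3 below. The 8 include the 2 bounds of OSBPL10. They also include 1563051_at, 212582_at and 218047_at, which were below 0 as deposited (-0.092, -0.021 and -0.022). The split over all probe sets of this type was not computed, so no direction is read from it. The median absolute difference was 0.21, against 0.18 for all measured probe sets.

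The size of these differences can be read against a probe-level error. It is the SD between the brightest and the second probe set of the same gene, divided by the square root of 2, over all genes whose pair falls in the same signal range. At a mean log2 signal below 5 it was 0.49, between 5 and 7 it was 0.30, between 7 and 9 it was 0.22 and between 9 and 11 it was 0.16. It covers probe behaviour and transcript forms, not differences between cultures. Differences entered it after low signals were set to the floor, which limits their size. The error below 5 can therefore be too small. In the family 6 of 23 probe sets (26.1%) differed by more than their own error, against 33.3% of all measured probe sets. 1 probe set, of OSBPL2, differed by more than 2 errors, or 4.35%, against 7.21% of all. The values of OSBPL10 taken as bounds enter these counts at their bound.

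**Figure D2:**
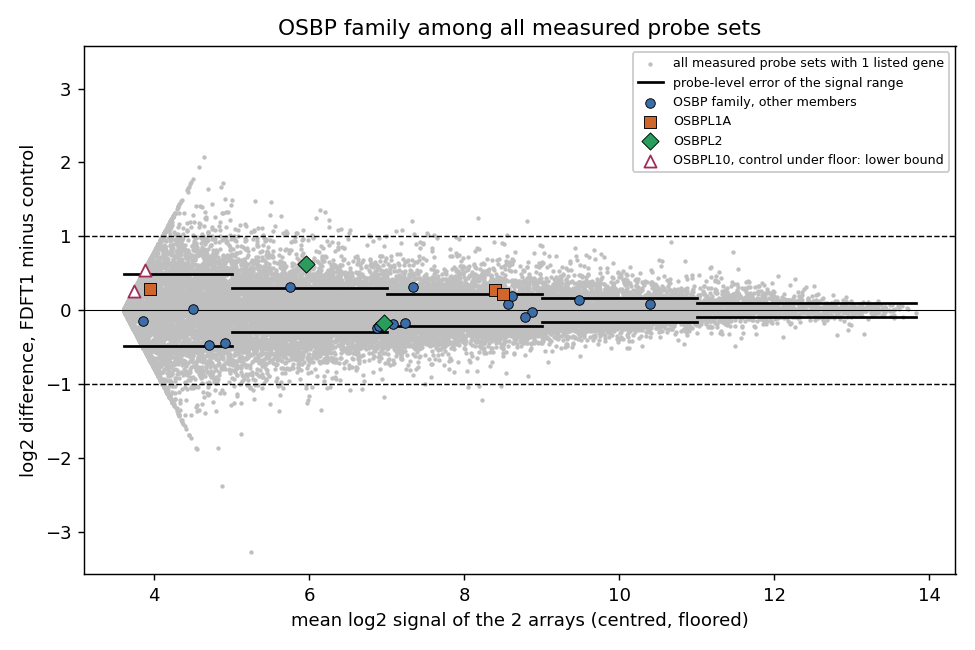
Log2 difference (FDFT1 minus control) against mean log2 signal for all 24634 measured probe sets with 1 listed gene (grey) and the 23 of the family (coloured). Black steps mark the probe-level error of each signal range and dashed lines 2-fold; the family runs from -0.47 to 0.62, with 2 probe sets of OSBPL10 (triangles) drawn at their lower bounds.

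OSBP, which trades cholesterol for PI4P between the endoplasmic reticulum and the Golgi, had 3 measured probe sets. Probe set 201800_s_at gave 493 with the control vector and 448 with FDFT1, and 201799_s_at gave 166 and 137. The dim 1563051_at gave 23.4 and 21.9. All 3 signals were lower on the FDFT1 array as deposited. After centring the differences were -0.032, -0.17 and 0.014, each within its error of 0.22, 0.22 and 0.49. The sign of 1563051_at came from the centring, and it was negative as deposited and after quantile and loess scaling (-0.092, -0.020 and -0.034).

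The values of the 3 measured probe sets of OSBPL1A all had the same sign. On the centred scale it was the only 1 of the 8 members with at least 2 measured probe sets for which this held, and as deposited and after quantile or loess scaling OSBP, with 3 values below 0, was the other. ORP1, its product, is found on late endosomes in a long form that binds RAB7 and senses cholesterol, and also exists as a short form. Probe set 208158_s_at gave 318 with the control vector and 356 with FDFT1. Probe set 209485_s_at gave 349 and 378, and 1554646_at, near the floor, gave 14.5 and 16.5. The FDFT1 signal was the higher in each, by 8.43% to 13.3% as deposited. The centred differences were 0.27, 0.22 and 0.29, a range of 0.064. The first and second are just past their error of 0.22, and the third is within 0.49. The sign of OSBPL1A was the same under these scalings. Of the 5 members with 3 measured probe sets it was 1 with all above 0, as were 15.9% of the 1739 genes with 3 measured probe sets.

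The sterol carrier OSBPL2 had, on 1 of its 2 probe sets, the largest difference among the family's probe sets with both signals at the floor. ORP2 lacks the membrane-binding PH domain of its relatives and moves cholesterol to the plasma membrane. Probe set 209221_s_at gave 51.9 with the control vector and 74.3 with FDFT1, a difference of 0.62 with an error of 0.30, or 1.54-fold. Its other probe set, 209222_s_at, gave 138 and 114, a difference of -0.17 with the same error. The probe sets therefore disagreed in sign, by 0.79, which is 1.85 times their joint error. This gap was the widest, in joint errors, of the 15 pairs of probe sets from the same member with all signals at the floor. The probe set above the 75th percentile was the one that was lower with FDFT1.

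OSBPL3 and OSBPL6 encode closely related proteins, and ORP3 is known for its part in cell adhesion with the small GTPase R-Ras. For OSBPL3, 209626_s_at gave 151 with the control vector and 174 with FDFT1, and 209627_s_at gave 149.8 and 122. The differences were 0.31 and -0.19 with an error of 0.22 each, and they lay 1.65 joint errors apart. The array pair thus gave no common direction for OSBPL3. For OSBPL6, 223805_at gave 473 and 411, 238575_at gave 132 and 104, and 236261_at gave 50.3 and 58.0. The differences were -0.098 (error 0.22), -0.24 (error 0.30) and 0.31 (error 0.30). The 2 probe sets above the 75th percentile were lower on the FDFT1 array and the dimmer one was higher.

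OSBPL5 and OSBPL8, the members anchored in the endoplasmic reticulum, supply phosphatidylserine to the plasma membrane in exchange for PI4P. For OSBPL8, 212585_at gave 708 with the control vector and 720.2 with FDFT1, and 212582_at gave 382 and 377. Their differences were 0.13 (error 0.16) and 0.085 (error 0.22), and as deposited the second was -0.021. These bright probe sets differed by less than their errors. The dimmer 228986_at gave 36.5 and 24.9, a difference of -0.45 with an error of 0.49, and 228985_at was under the floor at 3.65 and 2.75. For OSBPL5, 233734_s_at gave 31.8 and 21.4, a difference of -0.47 with an error of 0.49, the lowest of the family, and 223464_at was under the floor at 8.73 and 4.58. OSBPL5 thus rests on 1 measured probe set, in the range where a probe set's error is widest, with no second one to compare.

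OSBPL9, OSBPL10 and OSBPL11 work around the Golgi and endosomes, and ORP9 pairs with ORP10 or ORP11. OSBPL9 had 1 probe set, 218047_at, at 1358 with the control vector and 1337 with FDFT1, a difference of 0.084 with an error of 0.16. As deposited it was -0.022. Its partner OSBPL11 gave 380.2 and 404 on 218304_s_at, and 133 and 107 on 222586_s_at. The differences were 0.19 (error 0.22) and -0.21 (error 0.30), opposite in sign and each within its error. The remaining OSBPL11 probe set, 229527_s_at, was under the floor at 6.20 and 1.498.

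OSBPL10 was near or under the floor throughout. Probe set 219073_s_at gave 15.9 with the control vector and 13.3 with FDFT1, a difference of -0.15 with an error of 0.49. Probe sets 216755_at and 217017_at gave 1.70 and 17.1, and 4.12 and 14.1. Their control signals were under the floor, so their differences of at least 0.55 and at least 0.26 are lower bounds. These probe sets list the same source sequence, so they are not independent. The others, 222818_at at 1.24 and 4.66 and 231656_x_at at 9.99 and 6.41, were under the floor on both arrays. Without a floor, with signals under 1 set to 1, 4 probe sets of the family passed 2-fold, and each had at least 1 signal under 12.2. They were 216755_at, 217017_at and 222818_at of OSBPL10 at 3.44, 1.88 and 2.02, and 229527_s_at of OSBPL11 at -1.94.

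**Figure D3:**
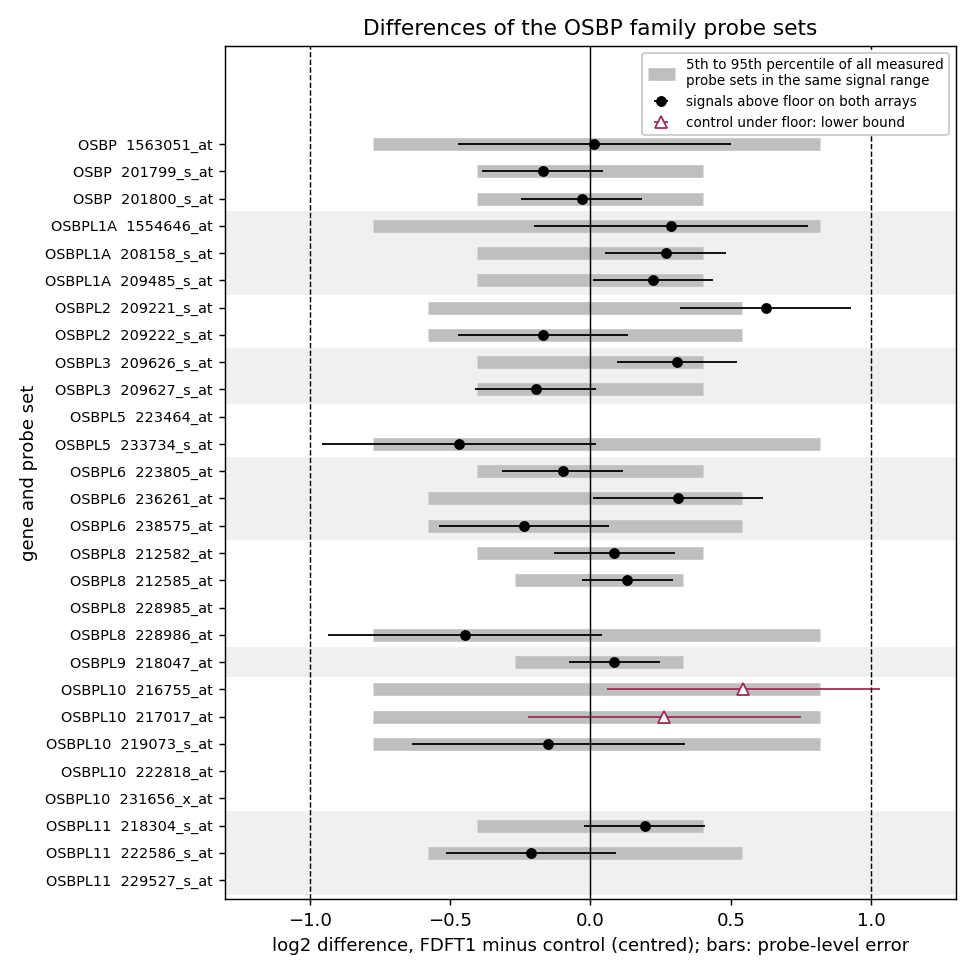
Centred log2 differences (FDFT1 minus control) for each measured probe set of the family, with bars of 1 probe-level error. Grey bands span the 5th to 95th percentile of all measured probe sets in the same signal range, rows without a point were under the floor on both arrays, and 209221_s_at of OSBPL2 at 0.62 lies beyond its band, which ends at 0.54; triangles are lower bounds.

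Probe sets of the same member often disagreed in sign, as did those of most genes. Of the 8 members with at least 2 measured probe sets, 7 (87.5%) had values on both sides of 0 on the centred scale, against 59.2% of 6535 such genes on the arrays. As deposited and after quantile or loess scaling it was 6 of 8, as OSBP then had values on 1 side. The shares of all such genes were then 55.2%, 59.5% and 59.1%. These shares are not matched for the number of measured probe sets. Of the 8 members 5 had 3, as had 1739 of the 6535 genes. OSBPL10 counts as mixed through its 2 lower bounds. Among probe sets at the floor on both arrays the centred count was 6 of 7, against 57.8% of 5797 genes. Of the 15 pairs of probe sets within a member with all signals at the floor, 7 lay further apart than their joint error, and none further than 2 joint errors. The same count over all genes was not computed. As the error was itself drawn from such gaps, gaps past 1 joint error are common by construction. Pairs from a member with 3 probe sets also share probe sets. The other 3 pairs, of OSBPL10, include lower bounds, so their gaps are not settled. Among the 14 probe sets above 99.4 on both arrays, 7 were above 0 and 7 below, from -0.24 to 0.31. The 5th and 95th percentiles of all 11799 probe sets at that level were -0.35 and 0.36.

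The family genes outside the 10 members were dim. OSBP2 had 1 of 3 probe sets measured, 223432_at, at 42.5 and 32.9, a difference of -0.26 with an error of 0.30. OSBPL7, a relative of OSBPL3 and OSBPL6, had 0 of 3 probe sets measured, with signals from 0.69 to 10.9.

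Genes that work with the family were compared on the brightest measured probe set of each. Of 57 measured genes in 6 lists 29 were above 0 and 28 below, where 6453 of all 12968 measured genes were above 0. None of the 56 with both signals at the floor was at least 2-fold different, and the other, STARD5, has a lower bound under 2-fold. Of 12968 measured genes 1.15% were counted as at least 2-fold, bounds included. Contact site anchors and tethers had 6 of 12 above 0 and a median of 0.023, against -0.0013 over all measured genes. VPS13A, a bridge-like lipid carrier, had a difference of 0.38 (94.0 to 114), with 2 of 4 probe sets above 0, and VPS13C, its relative, of 0.27 (129 to 145). MOSPD2, a VAP-like anchor, was at -0.42 (215 to 149) with 1 of 2 probe sets below 0, and MOSPD3 at -0.34 (138 to 101). The VAP anchors themselves, named after their values were seen, were at 0.10 for VAPA (2809 to 2799.8, and -0.0047 as deposited) and -0.056 for VAPB (958 to 857).

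PI4P supply and removal had 5 of 13 genes above 0 and a median of -0.11. SACM1L, the phosphatase that consumes the PI4P delivered to the endoplasmic reticulum, was at 0.48 (1009.7 to 1307) with an error of 0.16 on its 1 measured probe set, and at 0.37 as deposited. PITPNM2, a phosphatidylinositol transfer protein, was at 0.27 (20.7 to 23.2). TTC7A and EFR3B, parts of the PI4-kinase complex of the plasma membrane, were at -0.67 (63.0 to 36.7, 2 of 3 probe sets below 0) and -0.56 (41.8 to 26.3). The median of this list was 0.018 with each gene's probe sets averaged, so its sign depends on that choice.

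Phosphatidylserine synthesis and use had 6 of 8 genes above 0 and a median of 0.084, where 6453 of all 12968 measured genes were above 0. Of the 6, ANO6 and XKR8 (0.024 and 0.032) were below 0 as deposited (-0.082 and -0.074). ATP8B1, a lipid flippase, was at 0.74 (48.0 to 74.4, error 0.30) on 1 probe set and below 0 on its other. TMEM30A, the shared subunit of the flippases, was at 0.41 (532 to 657, error 0.16) with 3 of 3 probe sets above 0. The phosphatidylserine synthases PTDSS1 and PTDSS2, the makers of the cargo of OSBPL5 and OSBPL8, were at -0.066 and -0.022.

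Other sterol and ceramide transfer proteins had 6 of 11 genes above 0 and a median of 0.015. STARD5, a sterol and bile acid binding protein, was at least at 0.87 (10.2 to 21.5, error 0.49), with its control signal under the floor, and GRAMD1C, a cholesterol carrier of the Aster group, at 0.39 (51.0 to 62.2). GRAMD1A, another Aster protein, was at -0.22 (200.2 to 159, 2 of 2 probe sets below 0) and STARD3, the late endosomal sterol carrier, at -0.18 (174 to 142). Late endosome partners of OSBPL1A had 5 of 10 above 0 and a median of -0.0057. RAB7A, the GTPase that recruits the long form of ORP1, was at 0.36 (1293 to 1537, error 0.16) with 5 of 5 probe sets above 0, and at 0.25 as deposited. VPS41, a tethering subunit, was at 0.32 (201 to 233) with 3 of 3 above 0. VPS18, a subunit of the same complex, was at -0.59 (77.2 to 47.6, error 0.30) with 2 of 2 below 0, and RILP, a RAB7 effector, at -0.13. The partners thus lay on both sides of 0.

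Of 8 listed enzymes that make or modify oxysterols 7 were on the array and 3 were measured, where 12968 of all 19775 genes were. CYP27A1, the sterol 27-hydroxylase, was at 0.95 (15.4 to 27.6) with an error of 0.49 on its 1 measured probe set. EBP, a sterol isomerase, was at -0.28 (921 to 705, error 0.16) with 4 of 4 probe sets below 0, and SULT2B1, a sterol sulfotransferase, at -0.060.

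**Figure D4:**
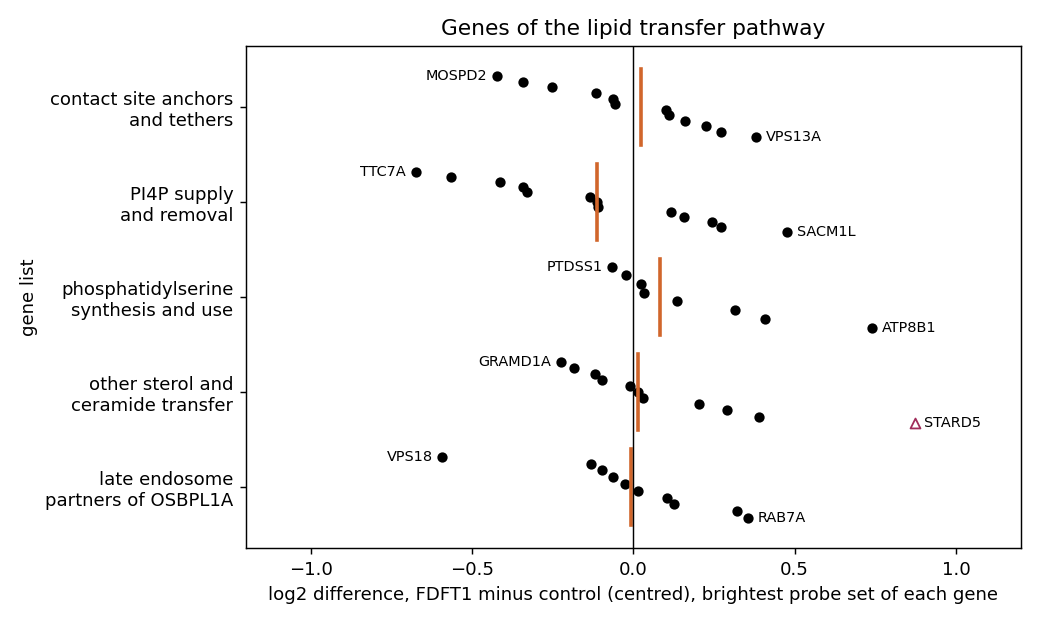
Centred log2 differences of the measured genes in 5 pathway lists, 1 point a gene from its brightest probe set, with the list median as a vertical bar; the open triangle has a control signal under the floor. The medians run from -0.11 (PI4P supply and removal) to 0.084 (phosphatidylserine synthesis and use), and no gene is drawn at 1 or beyond.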

How the data were processed

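RNA of 1 control-vector and 1 FDFT1-vector sample of CL1-0 was hybridised to 1 Affymetrix array each. The deposited intensities are linear MAS5 signals, 1 per probe set and array, as the submitters' processing notes name MAS5. No label states its version, scaling target or detection calls. With 1 array per group the number of arrays limits the precision. Groups came from the sample titles.

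Steps computed here used Python 3.11.15, numpy 2.4.6, pandas 2.3.3 and statsmodels 0.14.6. The 62 control probe sets were left out, leaving 54613. Log2 signals were centred on the median difference over probe sets at or above the floor (12.2) on both arrays, a shift of -0.11, and lower values were then set to the floor. A 2-fold difference (1 on the log2 scale) was the counting rule. Gene names came from the platform annotation, and all 10 members kept their symbols in the GRCh38.p14 gene table. Every member probe set is named, and of each pathway list the 2 genes furthest above 0 and the 2 furthest below. Members and lists were chosen with earlier results of these data known. With 2 arrays no likeness of pattern between genes was computed. The steps were tested on simulated data. Alternatives were other scalings, floors, fold thresholds and probe set choices.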

Additional observations from a re-analysis of the deposited data

How the results depend on the processing

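No paired analysis was possible because each group has 1 array. For the single probe sets of the family, 99 of 106 alternative values kept their direction and moved by less than the probe-level error. Many of the 106 could not move further. Another floor leaves a value unchanged where both signals stay above it. Leaving out the centring shifts a value by at most 0.11, less than any error used for the family. The count is therefore no measure of how firm the values are. The sign turned for OSBPL8 212582_at and OSBPL9 218047_at as deposited (-0.021 and -0.022) and for OSBP 1563051_at as deposited (-0.092), after quantile (-0.020) and after loess scaling (-0.034). Without a floor 216755_at and 217017_at of OSBPL10 moved to 3.44 and 1.88, as their control signals were then no longer raised to it. The family median of 0.084 turned to -0.022 as deposited and to -0.0087 without a floor. The count at 2-fold was 4 without a floor, and 1 at 1.5-fold. Keeping only probe sets at the floor on both arrays, a choice made after seeing the data, left 11 above and 10 below 0, 0 at 2-fold and a median of 0.014. With the floor at 99.4, where 0.111% of all measured probe sets were at least 2-fold different, 14 probe sets were measured and 7 were above 0. Leaving out _x_at and _s_at probe sets gave 8 above and 3 below 0, with the 2 bounds of OSBPL10 among the 8. The same split over all probe sets was not computed.

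The medians of the pathway lists were close to 0 and turned sign easily. As deposited, the anchors were at -0.083, phosphatidylserine at -0.022 and other transfer proteins at -0.091. After quantile scaling the anchors were at -0.0017 and the late endosome partners at 0.015, and loess gave the latter 0.013. With the floor at 99.4, PI4P was at 0.0028 and the late endosome partners at 0.039. Averaging each gene's probe sets, the anchors were at -0.039 and PI4P at 0.018. The cause of these turns was not tested, apart from the centring, which adds 0.11 to a difference, or 0.053 where 1 signal is set to the floor. Dim probe sets limit what can be read for OSBPL5 and OSBPL10, whose signals lay near or under the floor, and the 2 arrays give no measure of variation between cultures.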
